A study of Homo sapiens with 4 samples.

Results

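CSE1L, XPO1, XPOT, KPNA1, KPNA2, KPNA4, KPNB1, IPO5, IPO7 and RAN are 10 genes of nuclear transport, and their levels were compared between FLO-1LM and FLO-1 parental cells. They are 10 of the 63677 Ensembl genes in the count files, found there by their Ensembl identifiers, and all 10 passed the filter on low counts. The 10 genes were picked by family with earlier results of this comparison in view, so their differences between the lines are descriptions, and counts of them past a cut-off support nothing. FLO-1 cells are a long-established line from a human adenocarcinoma of the esophagus, and FLO-1LM is a subline that was grown from a liver deposit of FLO-1 cells after repeated passage through immunodeficient NSG mice. Each line was represented by 2 RNAseq libraries from untreated cultures harvested a day after a medium change. Nothing in the labels tells whether the 2 libraries of a line were grown as separate cultures, so p-values measure only the spread between these libraries, which may be technical. No agent or engineered allele is named for either line in this experiment. FLO-1LM is a single derived subline, and a difference between the lines cannot be told apart from one between this subline and any other passaged FLO-1 culture.

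Transport receptors carry proteins and RNA through nuclear pores and belong largely to the importin beta, or karyopherin beta, family. The small GTPase RAN gives transport its direction, because its GTP form, which is abundant in the nucleus, releases cargo from importins and loads cargo onto exportins. In the classical import route an importin alpha (a KPNA gene product) binds the nuclear localization signal of the cargo and importin beta 1 (KPNB1) takes the pair through the pore. The product of CSE1L, also called CAS, then returns importin alpha to the cytoplasm, so that the adapter can work again. Receptors of this family are often abundant in dividing tumor cells.

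Total counts ran from 19060310 to 25920336 per library, and the 10 genes together took 0.336% to 0.344% of the counts of a library. Mitochondrial genes took 9.57% to 9.96% of the counts in FLO-1LM and 7.93% to 8.31% in parental cells, and their part in the differences below was checked by leaving them out. Of 5 epithelial markers, KRT8, KRT18, KRT19 and CDH1 were measured in every library, while EPCAM was near 0, with 3 to 12 counts. The summed level of the 5 was 496 and 482 CPM (counts scaled to library size with TMM factors) in FLO-1LM and 845 and 858 CPM in parental cells. The 4 tested markers were all called lower in FLO-1LM by edgeR, beside 1.83% of all tested genes. The paper had already reported CDH1 as lower in FLO-1LM, so this list was not blind to these data. Of 6 hepatocyte markers 4 had no count in any library, ALB, TTR, APOB and FGB, and the sum over the 6 was 13.4 to 18.1 CPM, nearly all from SERPINA1. Of 5 fibroblast markers COL3A1 and DCN had no count, and the sum was 9.91 to 13.0 CPM, mostly from COL1A1. Of 5 blood cell markers PTPRC and HBB had no count, and the sum was 0.47 to 0.89 CPM.

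CSE1L (ENSG00000124207) spans bases 47662783 to 47713497 of chromosome 20 in GRCh37 and is read on the forward strand. Its promoter is shown because a long noncoding RNA gene, CSE1L-DT, starts on the other strand 144 bases before the first base of the RefSeq transcript, inside the printed window. The promoters of XPO1 and RAN, on chromosomes 2 and 12, are shown as those of 2 transport genes whose levels differed little between the lines. Each sequence is the 250 bases before the RefSeq start, written 5′ to 3′ on the strand of the gene and taken from GRCh38.p14. The same bases were found in GRCh37 at chr20:47662599-47662848 (forward strand) for CSE1L, chr2:61765492-61765741 (reverse strand) for XPO1 and chr12:131356361-131356610 (forward strand) for RAN. The GRCh37 gene annotation starts each of these genes further upstream than RefSeq. The CSE1L and RAN windows therefore reach into the annotated gene, and the XPO1 window lies wholly inside it. Capitals mark matches on either strand to the CCAAT box (CCAAT), the GC box (GGGCGG), the E-box (CACGTG), an NRF1 site (GCATGCGC), an ETS site (CCGGAAG) or 2 forms of an E2F site (TTTGGCGC and TTTCCCGC).
CSE1L: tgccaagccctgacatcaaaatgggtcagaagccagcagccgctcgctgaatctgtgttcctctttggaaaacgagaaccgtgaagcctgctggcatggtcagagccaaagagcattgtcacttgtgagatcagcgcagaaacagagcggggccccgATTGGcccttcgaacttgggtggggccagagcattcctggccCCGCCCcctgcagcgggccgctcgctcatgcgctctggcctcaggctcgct
XPO1: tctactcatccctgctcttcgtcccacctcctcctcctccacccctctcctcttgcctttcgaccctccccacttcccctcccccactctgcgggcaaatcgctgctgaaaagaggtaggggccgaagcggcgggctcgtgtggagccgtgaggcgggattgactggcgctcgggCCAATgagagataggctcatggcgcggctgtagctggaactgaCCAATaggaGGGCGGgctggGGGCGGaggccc
RAN: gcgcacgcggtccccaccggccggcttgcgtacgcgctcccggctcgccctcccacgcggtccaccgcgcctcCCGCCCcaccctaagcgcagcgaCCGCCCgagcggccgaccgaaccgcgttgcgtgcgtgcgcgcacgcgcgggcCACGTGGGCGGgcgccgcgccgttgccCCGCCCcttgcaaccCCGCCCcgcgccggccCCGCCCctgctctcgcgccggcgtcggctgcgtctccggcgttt

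In the CSE1L promoter the capitals are 1 CCAAT box and 1 GC box, both read on the reverse strand. The XPO1 promoter held 2 CCAAT boxes and 2 GC boxes, and in the RAN promoter an E-box shared its last base with 1 of the GC boxes. Promoters of 8 of the 10 genes were matched in the RefSeq table, with 1 window taken per gene. Any other RefSeq start of these genes was not searched, while the shares below are over all windows. Of these 8, 4 held a CCAAT box (CSE1L, XPO1, KPNA2 and IPO5), against 32.0% of all 35116 promoter windows of this length. A GC box was found in 6 of the 8 and in 42.6% of all windows, and an E-box in 2 of the 8, IPO7 and RAN, and in 6.34% of all windows. An ETS site was found in 1 of the 8, XPOT, which held 2 of them, 1 overlapping a GC box, and in 8.52% of all windows. The NRF1 site and the 2 E2F forms, present in 2.63%, 0.55% and 1.39% of all windows, were in none of the 8. These matches are letters in a window and were not compared with binding.

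Levels were set against each other per length, as RPKM, which here is CPM divided by the length of the canonical transcript in kilobases. KPNA2, an importin alpha, had the highest level at 175.3 RPKM as the mean of the 4 libraries. It was followed by RAN at 134.4, XPO1 at 127.8, KPNB1 at 109.0, CSE1L at 92.2 and IPO7 at 71.0 RPKM. XPOT at 38.8, IPO5 at 37.1, KPNA4 at 13.2 and KPNA1 at 12.3 RPKM came last. Among the importin alphas described here the level of KPNA2 was 13.3 times that of KPNA4 and 14.3 times that of KPNA1. Of the 9 pairs of neighbors in this order, 2 had overlapping ranges over the 4 libraries, XPOT with IPO5 and KPNA4 with KPNA1. RAN and XPO1 were barely apart, with lowest and highest values of 131.8 and 136.9 RPKM for RAN and of 124.7 and 131.6 for XPO1. The order also depends on the transcript length taken for each gene, and that of RAN on reads shared with its pseudogenes.

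**Figure D1:**
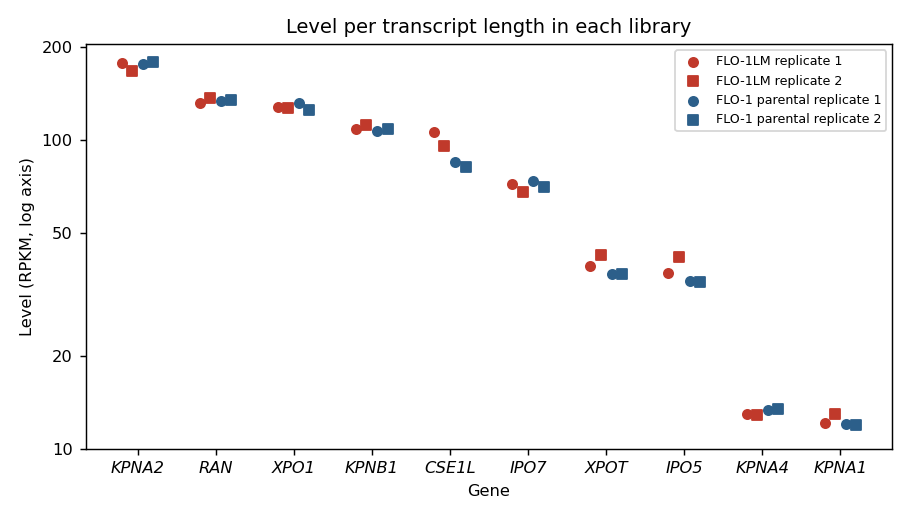
Level of each gene per transcript length (RPKM, log axis) in each of the 4 libraries, ordered by the mean. KPNA2 stands highest at 167 to 179 RPKM and KPNA1 lowest at 11.9 to 13.0 RPKM. The CSE1L points lie at 106 and 96.1 RPKM in FLO-1LM and at 84.9 and 82.0 RPKM in parental cells.

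Across the 17143 genes tested with edgeR, 382 (2.23%) passed the cut-off, an adjusted p of 0.05, 69 (0.402%) higher and 313 (1.83%) lower in FLO-1LM. None of the 10 transport genes was among them. At an unadjusted p below 0.05 the count was 2, CSE1L and IPO5, beside 2119 (12.4%) of all tested genes. With TMM factors limma voom called 0, and DESeq2 called 1, CSE1L. In these fits CSE1L lay close to the cut-off, so whether it is called depends on the method. The paper, which used limma voom, counts CSE1L among the genes significantly upregulated in FLO-1LM. The log2 fold changes of the 10 genes, FLO-1LM against parental, ran from −0.06 to 0.27 with a median of 0.015, beside a median of 0.0016 over all tested genes. Both FLO-1LM libraries were above both parental libraries for 5 of the 10 genes and below them for 1, where the same held for 20.9% and 21.7% of all tested genes.

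CSE1L, the exporter of importin alpha, had 374.9 and 341.1 CPM in FLO-1LM and 301.4 and 291.1 CPM in parental cells. Both FLO-1LM libraries were above both parental libraries, and the difference between the line means was larger than the spread within either line. The mean was 358.0 ± 23.9 CPM in FLO-1LM and 296.2 ± 7.2 in parental cells (SD, n = 2 each), a fold of 1.21. On the log2 scale this was a difference of 0.27 with a standard error (SE) of 0.074, and its 95% interval ran from 0.12 to 0.43. In these bulk libraries a share of cells with more CSE1L RNA and more RNA in each cell cannot be told apart. Of the 69 genes called higher, 1 had a smaller log2 fold change than CSE1L, and their median was 0.53. Passing the cut-off favors larger values, so this is no measure of the CSE1L value. The value was 0.20 without FLO-1LM replicate 1 and 0.34 without FLO-1LM replicate 2. It was 0.30 and 0.25 without FLO-1 parental replicates 1 and 2.

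XPO1 and XPOT are exportins. XPO1, which encodes the export receptor for proteins with leucine-rich export signals and the target of selinexor, had 637.1 and 635.2 CPM in FLO-1LM and 656.3 and 621.9 in parental cells. The FLO-1LM values lay between the parental values, and the log2 fold change was −0.0067 (SE 0.068, 95% interval −0.15 to 0.14). XPOT, the tRNA exporter, had 248.5 and 270.9 CPM in FLO-1LM and 234.9 and 234.6 in parental cells. Here both FLO-1LM libraries were higher, with a log2 fold change of 0.15 (SE 0.074, 95% interval −0.010 to 0.30).

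The 3 importin alphas, which recognize classical nuclear localization signals, had values close to 0 on the log2 scale. KPNA1 had 83.4 and 89.6 CPM in FLO-1LM and 82.7 and 82.2 in parental cells, with a log2 fold change of 0.070 (SE 0.084). KPNA2 had 351.1 and 330.6 CPM in FLO-1LM and 350.5 and 354.1 in parental cells, with a log2 fold change of −0.048 (SE 0.071). Its FLO-1LM libraries lay on either side of the lower parental one. KPNA4 had 116.1 and 115.1 CPM in FLO-1LM and 120.1 and 121.2 in parental cells. It was the only one of the 10 genes with both FLO-1LM libraries below both parental ones, and its log2 fold change was −0.061 (SE 0.077, 95% interval −0.22 to 0.10).

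The importin beta receptors KPNB1, IPO5 and IPO7 take cargo inward, IPO5 and IPO7 among others ribosomal proteins and histones. KPNB1 had 658.3 and 676.9 CPM in FLO-1LM and 648.4 and 657.9 in parental cells. The lines came within 1 CPM of overlapping, and the log2 fold change was 0.032 (SE 0.067, 95% interval −0.11 to 0.17). IPO5 had 222.3 and 250.9 CPM in FLO-1LM and 209.4 and 208.8 in parental cells, a log2 fold change of 0.18 (SE 0.078, 95% interval 0.016 to 0.34). The FLO-1LM libraries of IPO5 differed from each other by more than the nearer one differed from the parental libraries. The IPO5 value was 0.26 without FLO-1LM replicate 1 and 0.089 without FLO-1LM replicate 2. IPO7 had 444.7 and 417.4 CPM in FLO-1LM and 454.2 and 432.9 in parental cells, and the ranges overlapped.

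RAN, the GTPase that CSE1L, the exportins and the importin beta receptors bind, had 326.0 and 338.7 CPM in FLO-1LM and 331.8 and 333.5 in parental cells. The FLO-1LM values enclosed the parental ones. The means were 332.3 ± 9.0 and 332.7 ± 1.2 CPM (SD, n = 2 each), with a log2 fold change of −0.0015 (SE 0.070, 95% interval −0.15 to 0.15).

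**Figure D2:**
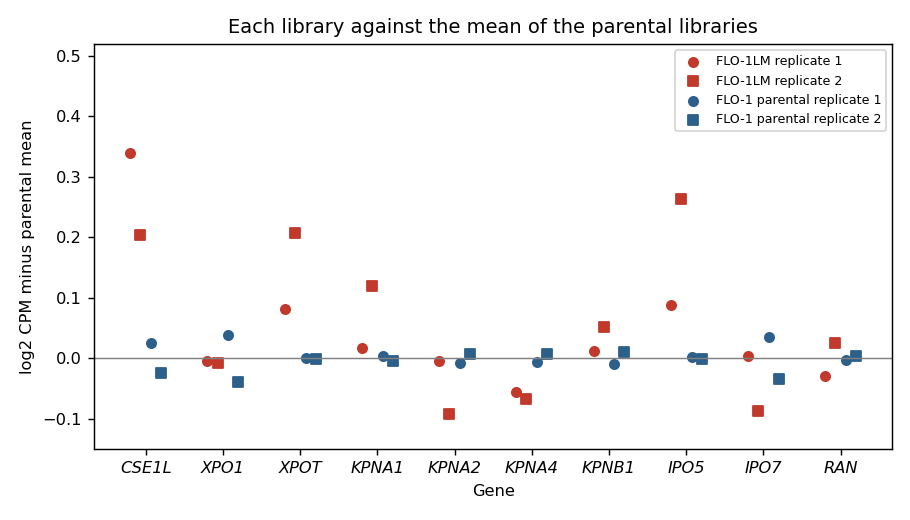
log2 CPM of each gene in each of the 4 libraries, minus the mean of the parental libraries. The CSE1L points of FLO-1LM lie at 0.34 and 0.20, those of IPO5 at 0.088 and 0.26, and those of RAN at −0.029 and 0.026.

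The FLO-1LM libraries did not rank the genes alike. CSE1L was higher in replicate 1, while XPOT, KPNA1 and IPO5 were higher in replicate 2. CSE1L was set per length against the summed RPKM of KPNA1, KPNA2 and KPNA4, the importin alphas among the 10 genes. It stood at 0.521 and 0.498 of this sum in FLO-1LM and at 0.419 and 0.401 in parental cells. The sum leaves out KPNA3, KPNA5 and KPNA6, with means of 21.32, 2.528 and 27.25 RPKM, so ratios to all importin alphas would be lower. For KPNB1, the carrier on the way in, the ratio to the same sum was 0.536 and 0.579 in FLO-1LM and 0.528 and 0.531 in parental cells. CSE1L made up 12.8% and 11.8% of the summed RPKM of the 10 genes in FLO-1LM and 10.5% and 10.3% in parental cells. These ratios use the same counts as the fold changes above and add no separate evidence.

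The other transport receptors and the genes of the RAN cycle, 29 in all, were listed by family and lie outside the 10. This list too was made with earlier results of these data known, so its counts are descriptions. Of the 29 genes, 26 could be tested, and 0 passed the cut-off in edgeR in either direction, where 2.23% of all tested genes did. An unadjusted p below 0.05 was found for 2, IPO9 and XPO7, beside 12.4% of all tested genes. DESeq2 and limma voom also called 0 of them. Their median log2 fold change was 0.010, with 14 positive and 12 negative values. KPNA7, RANBP17 and RANBP3L were not tested, with at most 4 counts in any library.

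Among the other importin alphas and import adapters, 0 of 4 tested genes passed the cut-off in edgeR. KPNA3 was at −0.099 (SE 0.089) and KPNA6 at −0.075 (SE 0.073) on the log2 scale, and KPNA5 and SNUPN, the adapter for spliceosomal RNA particles, had 0.014 and 0.16. Among the 9 other import receptors of the importin beta family, none was called. IPO9 had 170.0 and 170.6 CPM in FLO-1LM and 152.4 and 147.1 in parental cells, a log2 fold change of 0.19 (SE 0.075, edgeR adjusted p = 0.292). Both its FLO-1LM libraries were above both parental ones, with little spread in either line. RANBP6 was at the upper end of this group at 0.24 (SE 0.14, edgeR adjusted p = 0.524) on overlapping libraries. Its value was 0.39 without FLO-1LM replicate 2, the FLO-1LM library with the lower RANBP6 level. At the lower end were IPO13, which works in both directions, at −0.14 (SE 0.092), and IPO4 at −0.23 (SE 0.47), on 29 to 39 counts per library.

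Of the 6 tested genes among the other exportins and mRNA export receptors, 0 passed the cut-off in edgeR. XPO7 had 109.6 and 109.3 CPM in FLO-1LM and 98.1 and 94.7 in parental cells, with a log2 fold change of 0.18 (SE 0.079, edgeR adjusted p = 0.346). The mRNA export partners NXF1 and NXT1 had values of opposite sign, −0.17 (SE 0.096) and 0.19 (SE 0.19), and XPO4 was at −0.14 (SE 0.10).

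Of the 7 tested RAN cycle genes, 5 had positive and 2 negative log2 fold changes, and none passed the cut-off in edgeR. RCC1, the nuclear exchange factor that loads RAN with GTP, had 139.8 and 147.9 CPM in FLO-1LM and 135.1 and 143.8 in parental cells, and these overlapped. RANGAP1, which makes RAN hydrolyze GTP in the cytoplasm, had 344.3 and 373.4 CPM in FLO-1LM and 322.6 and 332.0 in parental cells. Its log2 fold change was 0.13 (SE 0.073, 95% interval −0.019 to 0.29, edgeR adjusted p = 0.493). RANBP1, a cofactor of RANGAP1, was at −0.0023 (SE 0.076), and RANBP3 was at −0.060 (SE 0.11). NUTF2, which brings RAN back into the nucleus, RANBP2, a pore protein of the cytoplasmic side, and RANGRF were at 0.069, 0.078 and 0.097.

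Nucleoporins form the channel that the receptors pass. Of 31 listed, 30 were tested and 0 passed the cut-off in edgeR, where 2.23% of all tested genes did. At an unadjusted edgeR p below 0.05 the count was 0, beside 12.4% of all tested genes. DESeq2 and limma voom called 0 as well. Log2 fold changes ran from −0.12 for NUP160 to 0.19 for NUP37, with a median of 0.033, 18 positive and 12 negative. NUP98 at −0.10 (SE 0.072) and NUP88 at 0.17 (SE 0.083, edgeR adjusted p = 0.427) were next to the ends. POM121C had no count in any library, and reads of its near copy POM121 may hold both, so POM121 is uncertain.

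**Figure D3:**
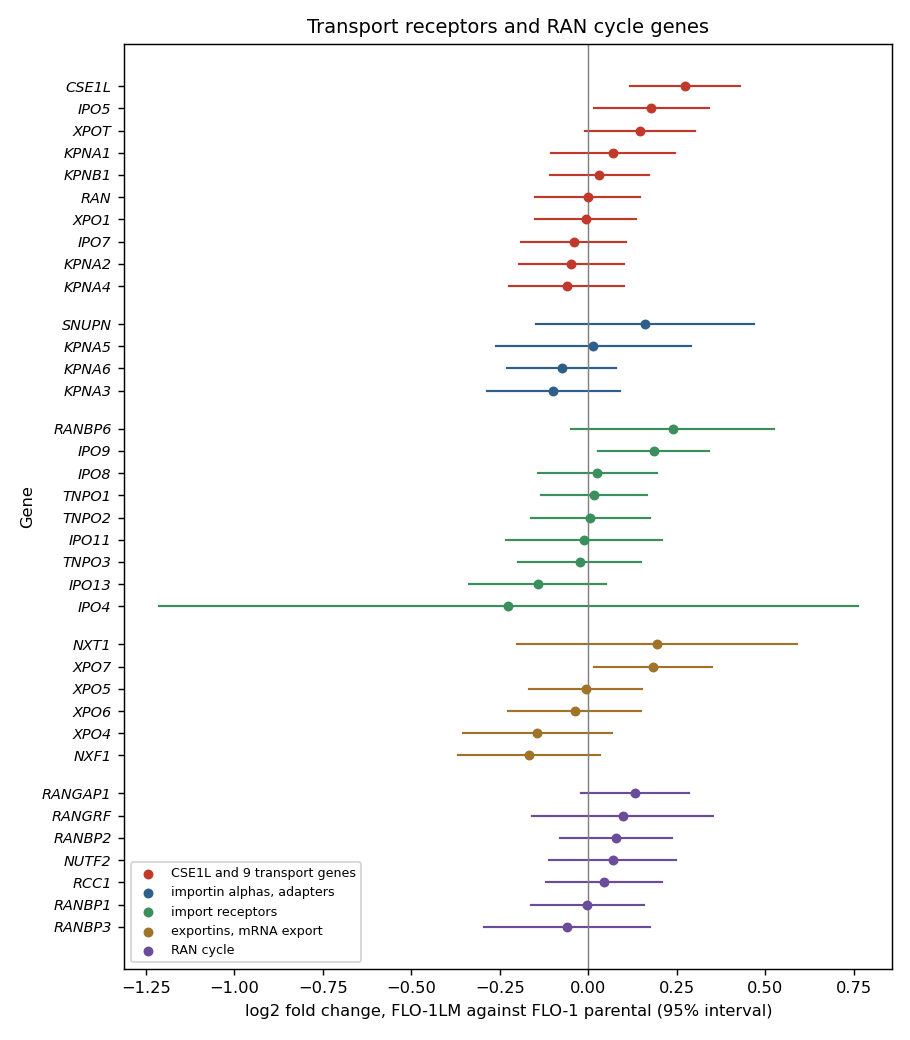
Log2 fold change with its 95% interval, FLO-1LM against FLO-1 parental, for the 10 genes described here and for the 26 other tested receptors and RAN cycle genes, by family. The points lie between −0.23 (IPO4) and 0.27 (CSE1L), and IPO4 has the widest interval.

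Genes near each of the 10 were also read from the fit, since position had no part in the choice. Within 1 Mb of any of them 179 other genes were tested, and 7 of these (3.91%) passed the cut-off in edgeR, 2 higher and 5 lower, beside 2.23% of all tested genes. Of the 7, 5 were noncoding, and 2 of these, ENSG00000264558 and ENSG00000266341, passed the filter on low counts only through the parental libraries. With at least 10 counts required in every library both dropped out. The other 5 were called in that fit, beside 269 of all 15474 genes tested in it. USP34-DT, KPNB1-DT and ENSG00000264558 are among the 7 and are also the called genes on the other strand given below. Around CSE1L 13 protein-coding genes were tested. Their log2 fold changes had a median of 0.018, with 7 positive. The median was 0.0018 over the 349 tested protein-coding genes of chromosome 20 other than CSE1L, these 13 included. Beside CSE1L, ARFGEF2 was at −0.049 (SE 0.077), STAU1 at 0.018 (SE 0.076), and the pseudogene ARPC3P1, which lies within the bounds of STAU1, at 0.48 (SE 0.23). B4GALT5, a galactosyltransferase gene, was the 1 called gene of this stretch and was lower, at −0.37 (SE 0.072, edgeR adjusted p = 0.00811). For IPO5, the gene of the 10 with the next largest value, 6 protein-coding neighbors had a median of −0.022. RAP2A among them was called higher at 0.47 (SE 0.077, edgeR adjusted p = 0.00148). For XPOT, which came after IPO5, 11 protein-coding neighbors had a median of 0.0090. The pseudogene ATP6V1E1P3 near XPOT was called higher at 0.68 (SE 0.16, edgeR adjusted p = 0.0318).

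**Figure D4:**
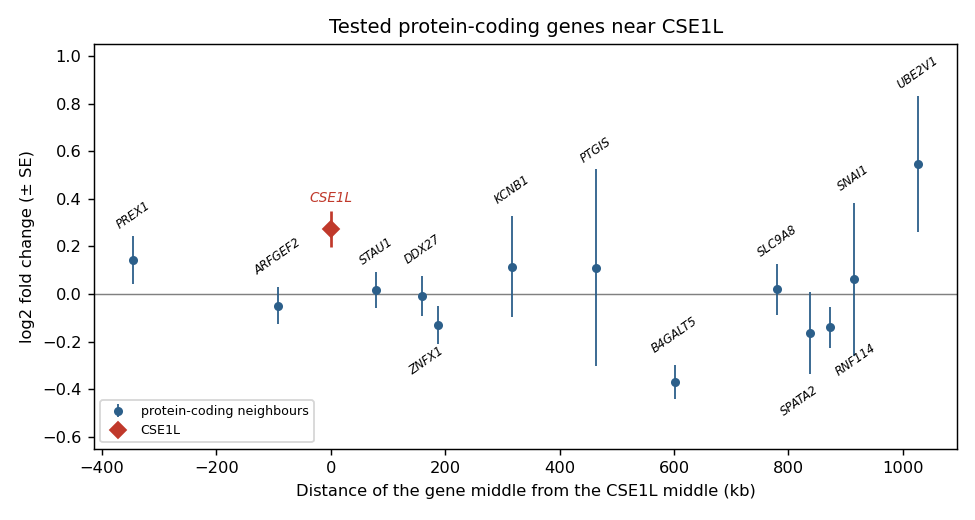
Log2 fold change (± standard error) of CSE1L and the 13 tested protein-coding genes within 1 Mb, against the distance of each gene's middle from that of CSE1L in kilobases. CSE1L stands at 0.27, the flanking ARFGEF2 and STAU1 at −0.049 and 0.018, and B4GALT5 at −0.37.

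Of 6 genes on the other strand of the transport genes, 5 were tested and 3 were called lower in FLO-1LM by edgeR. Of the 3, ENSG00000264558 was tested only because of its parental counts. The 6 genes were added after their values were seen, so this count supports nothing. All had few counts, and in the same fit 143 of 4170 tested genes annotated as other than protein-coding (3.43%) were called lower, beside 1.83% of all tested genes. More genes had a count in the parental libraries, 23104 and 22908, than in the FLO-1LM libraries, 21152 and 21304, and the part of this difference in these values was not tested. USP34-DT, whose exons share 690 bases with XPO1, had 28 and 31 counts in FLO-1LM and 101 and 104 in parental cells. That was 0.197% and 0.190% of the XPO1 counts in FLO-1LM and 0.698% and 0.872% in parental cells, with no overlap between the lines. The log2 fold change was −2.02 (SE 0.33, edgeR adjusted p = 0.00174), while XPO1 itself was at −0.0067. Opposite the exons of KPNB1, ENSG00000264558 had 3 and 9 counts in FLO-1LM and 46 and 32 in parental cells. It was tested only because of its parental counts, so its call is not used. KPNB1-DT starts 27 bases from the annotated gene start of KPNB1, not its RefSeq start, in the other direction. It had 15 and 24 counts in FLO-1LM and 74 and 56 in parental cells, at −1.95 (SE 0.43, edgeR adjusted p = 0.0177). KPNB1 was at 0.032. CSE1L-DT had 0 and 2 counts in FLO-1LM and 3 and 5 in parental cells, too few to test. The other 2 genes did not pass the cut-off. WDR5B-DT, opposite KPNA1, was at −0.46 (SE 0.29, edgeR adjusted p = 0.592) and KRT8P12, opposite KPNA4, was at 0.57 (SE 0.28, edgeR adjusted p = 0.421). The libraries were made with a directional kit, but the strand setting of the counting is not stated. Where exons overlap, reads of such a gene therefore cannot be told apart here from reads of the transport gene that were assigned to the other strand. KPNB1-DT and CSE1L-DT share no base with KPNB1 and CSE1L in the annotation.

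**Figure D5:**
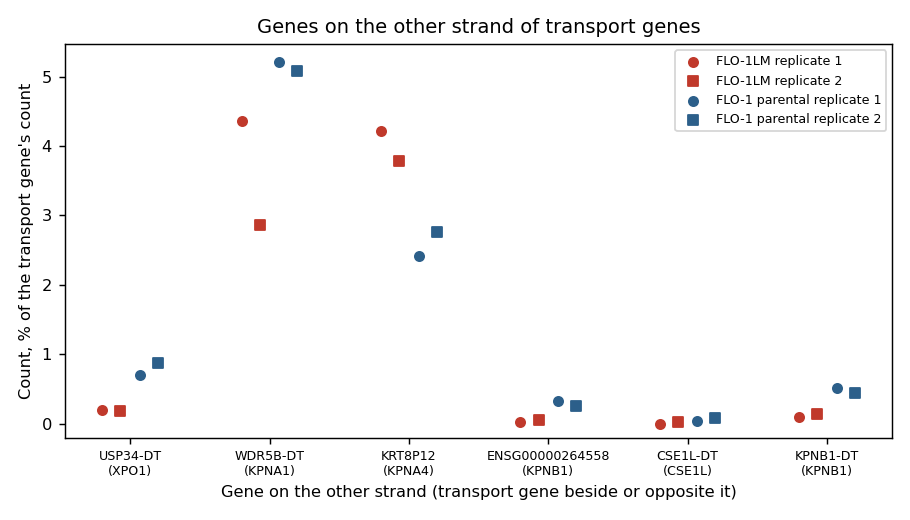
Count of each gene on the other strand as a percentage of the count of the transport gene beside or opposite it, in each of the 4 libraries. For KRT8P12 both FLO-1LM points lie above both parental points, and for the other 5 genes both lie below.

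Of the 10 genes, 7 have processed or other pseudogenes named after them, 18 in all, and 8 of these had no count in any library. The pseudogene counts summed to 27.1% to 31.2% of the RAN count per library, 17.2% to 20.6% of the XPOT count and 10.8% to 14.2% of the IPO7 count, and to less than 1% for KPNA2, KPNA4, KPNB1 and IPO5. RAN, XPOT and IPO7 are therefore uncertain in size, because the treatment of reads with several matches is not stated. Of the 6 pseudogenes tested, 0 passed the cut-off in edgeR and 0 had an unadjusted p below 0.05. RANP1, with 91.9 ± 6.9 CPM in FLO-1LM and 98.3 ± 7.4 in parental cells (SD, n = 2 each), was the largest. With the pseudogene counts added to their genes, the log2 fold changes were −0.022 for RAN, 0.15 for XPOT and −0.019 for IPO7. CSE1L has no such pseudogene in the annotation used.

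The genes whose pattern over the 4 libraries was most like that of CSE1L were found by the distance between log2 CPM values taken from the gene mean, among 9438 protein-coding genes with a mean of at least 10 CPM. MED21, a subunit of the Mediator complex, was nearest, at a distance of 0.020 on the log2 scale. IFTAP, C1GALT1C1, MX1 and TBC1D4 followed, at 0.029 to 0.032. Their log2 fold changes ran from 0.24 for C1GALT1C1 to 0.30 for MX1, an interferon-induced gene. The 4 libraries are shared by all these values, and with so few points the likeness is a description only.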

How the data were processed

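Read counts per Ensembl gene were deposited by the authors, 1 file per library, without normalization. The authors trimmed adapters (Trimmomatic 0.30, after bcl2fastq 2.17, per the labels) and mapped the reads to GRCh37 with an aligner that they do not name. The counting program, its strand setting and how it handled reads with more than 1 match are not given in the sources used here.

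Gene symbols, positions and canonical transcript lengths were taken from a GENCODE annotation of GRCh37, which matched 55665 of 63677 identifiers and is later than the one counted on. Genes were kept with filterByExpr (minimum count 10, minimum total 15), scaled by TMM and tested with edgeR 4.0.16 (glmQLFit, glmQLFTest) in R 4.3.3, with Benjamini and Hochberg adjustment over 17143 genes. Standard errors are the absolute log2 fold change over the square root of F, and 95% intervals use the degrees of freedom of that test. limma 3.58.1 (voom) and DESeq2 1.42.0 were alternatives. The scripts were tested on simulated data. With 2 libraries against 2 an exact permutation test cannot go below p = 0.333.

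The 10 genes, the other lists and the rule for named genes were chosen with earlier results of these data known. Named were the 10 genes, in each other transport list the genes past the cut-off and 2 at each end, 5 RAN cycle genes, the genes beside CSE1L and called genes within 1 Mb of it, and the 5 genes nearest to it in pattern. RAP2A and ATP6V1E1P3, called near IPO5 and XPOT, genes on the other strand and the proliferation genes given values were added after their values were seen. Promoter sequences are from RefSeq.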

Additional observations from a re-analysis of the deposited data

How the results depend on the processing

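No paired analysis was possible because the labels number no replicates, and the numbers used here only name the libraries in the order of deposit and pair none of them. All genes: the count past the cut-off was 577 with no filter on low counts and ranged from 116 to 1052 when 1 library was left out, lowest without FLO-1 parental replicate 1 (116) or 2 (139) and highest without FLO-1LM replicate 1 (1052) or 2 (967). In these fits the lone library is assumed to vary like the remaining pair. Of the 10 transport genes, 1 passed with DESeq2 and 1 with no filter, CSE1L in both, and 0 to 1 when 1 library was left out (CSE1L without FLO-1LM replicate 2, IPO5 without FLO-1LM replicate 1). Over its 13 alternatives CSE1L kept a positive value, from 0.20 to 0.34, and passed in 3. Of the other receptors and RAN cycle genes 0 to 1 passed when 1 library was left out (RANBP6, without FLO-1LM replicate 2). Among genes within 1 Mb the count ranged from 1 to 18 in those fits, 1 and 3 without FLO-1 parental replicates 1 and 2, and 18 and 15 without FLO-1LM replicates 1 and 2. Adding pseudogene counts, and the alternatives for the 10-gene and 1 Mb counts, were chosen after seeing the data. Of 130 log2 fold changes of the 10 genes under alternatives, 119 moved by less than the spread between replicates, and those of XPO1, IPO7 and RAN, all near 0, took the other sign in 1, 1 and 2 fits. With library totals in place of TMM factors CSE1L was at 0.24, and with mitochondrial genes left out at 0.27. Standard errors of the 10 genes were 0.067 to 0.084 on the log2 scale, and differences of that size were not detectable with these libraries.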

Other observations

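Genes of cell proliferation were read beside the transport genes. Of 17 listed proliferation genes, all 17 were tested, 0 passed the cut-off in edgeR, and 2 had an unadjusted p below 0.05, CDK1 and AURKA, where 12.4% of all tested genes did. Their median log2 fold change was −0.0055, with 7 positive and 10 negative values. CDK1, the mitotic kinase, was at 0.17 (SE 0.079, edgeR adjusted p = 0.371), and AURKA, a spindle kinase, at −0.24 (SE 0.086, edgeR adjusted p = 0.223). MKI67, the usual proliferation marker, was at 0.054 (SE 0.079), and PCNA at −0.0055 (SE 0.080).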
